A study of Homo sapiens with 4 samples.

Results

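The genes described here are 10 members of a group that encode the coat of caveolae (CAV1, CAV2, CAVIN1, CAVIN2, CAVIN3 and EHD2) or mark alveolar type I cells (AQP5, AGER, PDPN and HOPX), and 9 of them could be read out of 18377 genes on the arrays. They were matched by gene symbol to probe sets that carry a single symbol. The probe set that bears the CAV2 symbol bears a second symbol as well, so CAV2 is not analysed here. The group was chosen by the CAV1 difference between siTAZ and siNTC, seen to be lower in both cell lines, and such differences are therefore given for the members as a description, with no test.

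Array profiles were taken of A549 and of H441, both long-established lines from human lung adenocarcinoma, transfected with an siRNA against TAZ (siTAZ) or a control siRNA (siNTC). The 4 groups were A549 with siTAZ, A549 with siNTC, H441 with siTAZ and H441 with siNTC, each with 1 array of RNA taken 48 h after transfection with the same lipid reagent. TAZ, encoded by WWTR1, is a transcriptional co-activator of the Hippo pathway that binds DNA through TEAD factors. No group has a replicate, the labels do not state the siRNA sequences, and no label says that the arrays of a line came from separate cultures.

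Caveolae are flask-shaped pits of the plasma membrane that buffer membrane tension and organise signalling. Caveolins insert into the inner leaflet as oligomers, cavins assemble around them as a coat, and EHD2, an ATPase, sits at the neck and holds the pit at the surface. In the lung, endothelial cells and the flat, gas-exchanging alveolar type I cells are rich in caveolae, and caveolin 1 is used as a type I marker beside the water channel AQP5, the receptor AGER (RAGE), the mucin-like glycoprotein podoplanin (PDPN) and the homeodomain-only protein HOPX. Type I cells arise from cuboidal type II cells, which make surfactant.

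The values were log2 signals made with RMA, and the median of the whole table, 6.13, served as the level below which a probe set was treated as dim. WWTR1, the silenced gene, was lower in each siTAZ sample than in its control. Its log2 signal was 7.64 with siTAZ and 10.04 with siNTC in A549, and 7.47 with siTAZ and 9.61 with siNTC in H441 (mean difference -2.27 ± 0.12, limma SE, adjusted p = 1.5e-11). KRT8 and KRT18, keratins of simple epithelia, were between 13.04 and 13.64 on all 4 arrays. EPCAM, an epithelial adhesion gene, was 6.74 and 6.65 in A549 with siTAZ and siNTC, and 12.00 and 12.13 in H441. Of 8 endothelial markers, 5 were dim on all 4 arrays, among them PECAM1, CDH5 and VWF. Likewise, 3 of 6 fibroblast and 3 of 6 leukocyte markers were dim on all 4. The other markers reached the table median on some array, among them COL1A1 (7.31 to 8.71) and CD68 (8.61 to 10.41). Of all 18377 genes, 12740 reached it on some array.

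CAV1, which encodes the main caveolin of non-muscle cells, had a lower signal after siTAZ in both lines. Its log2 signal was 9.19 with siTAZ and 9.75 with siNTC in A549, a difference of -0.56, or 1.47-fold lower. In H441 it was 11.64 with siTAZ and 12.27 with siNTC, a difference of -0.63, or 1.55-fold lower. The 2 H441 values lay above both A549 values, so the order of the 4 arrays, low to high, was A549 with siTAZ, A549 with siNTC, H441 with siTAZ and H441 with siNTC. In 34 of the 12740 genes tested, CAV1 among them, both lines were lower by at least as much as CAV1 in A549. In these bulk samples, fewer cells that express a gene and less RNA per cell cannot be told apart.

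CAVIN2, which encodes a cavin that helps to bend the membrane, had a lower value after siTAZ in H441 but not in A549. Its log2 signal was 6.86 with siTAZ and 7.65 with siNTC in H441, a difference of -0.80, or 1.74-fold lower, the largest among the members. In A549 it was 6.58 with siTAZ and 6.56 with siNTC, a difference of 0.03. The H441 array with siNTC thus stood above the other three, which lay close together.

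CAV1 and CAVIN2 were the 2 members that differed by more than 1.5-fold in any line, so the RefSeq promoter sequences of both are given here. That of AGER is added, the only member besides CAVIN2 with a match to the letters below. The sequences shown thus do not stand for the members at large. The windows cover the 250 bases before an annotated start site, read 5′ to 3′ on the gene's strand in GRCh38.p14. Capitals mark matches to GGAATG, the core that TEAD factors bind, or to CATTCC, its reverse complement.
CAV1 (chr7:116524759-116525008, plus strand): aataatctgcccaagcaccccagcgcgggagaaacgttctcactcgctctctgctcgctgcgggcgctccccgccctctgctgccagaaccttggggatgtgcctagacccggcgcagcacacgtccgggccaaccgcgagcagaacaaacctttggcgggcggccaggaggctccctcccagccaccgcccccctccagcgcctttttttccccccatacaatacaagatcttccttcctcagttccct
CAVIN2 (chr2:191847089-191847338, minus strand): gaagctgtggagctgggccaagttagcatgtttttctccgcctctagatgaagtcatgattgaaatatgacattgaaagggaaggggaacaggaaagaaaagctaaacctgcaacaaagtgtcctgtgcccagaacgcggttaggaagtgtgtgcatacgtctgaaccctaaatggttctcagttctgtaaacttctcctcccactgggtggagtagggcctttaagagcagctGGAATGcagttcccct
AGER (chr6:32184254-32184503, minus strand): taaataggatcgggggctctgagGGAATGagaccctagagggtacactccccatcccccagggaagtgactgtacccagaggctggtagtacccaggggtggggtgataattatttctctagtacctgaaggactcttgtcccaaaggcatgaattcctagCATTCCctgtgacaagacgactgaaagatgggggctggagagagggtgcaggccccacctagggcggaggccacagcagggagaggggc
The CAVIN2 window holds 1 match, which begins 16 bases before the start site, and the AGER window holds 2, which begin 227 and 89 bases before it. CAV1 has 3 annotated start sites, 2 of them with overlapping windows, and none of the 3 windows holds these letters. Of 35116 such windows of all genes, 11.9% hold at least 1 match, and of 27305 genes, 14.3% have a window that does. CAVIN1 and CAVIN3 have no sequence in the table, and of the 8 members with one, CAVIN2 and AGER were those with a match. TGANTCA, a loose form of the core bound by AP-1 factors in which N is any base, was searched on both strands. It was found in 0 of the 14 windows of these 8 members and in 6.57% of all windows. A match is a description of the letters and not a site shown to be bound.

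The other coat genes differed less. CAVIN1, which encodes the cavin needed for caveolae to form, had a log2 signal of 8.27 with siTAZ and 8.42 with siNTC in A549, and 8.58 with siTAZ and 8.63 with siNTC in H441. Its differences were -0.15 in A549 and -0.05 in H441. EHD2 had 8.79 with siTAZ and 8.75 with siNTC in A549, and 8.70 with siTAZ and 8.61 with siNTC in H441, differences of 0.03 and 0.09. These 2 genes were well above the table median on every array, and the largest of their 4 differences was that of CAVIN1 in A549.

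CAVIN3, a cavin first described as a binding protein of protein kinase C delta, differed in opposite directions in the 2 lines. In A549 its log2 signal was 6.20 with siTAZ and 6.38 with siNTC, a difference of -0.18. In H441 it was 6.80 with siTAZ and 6.35 with siNTC, a difference of 0.45, or 1.36-fold higher. H441 with siTAZ was the highest of the 4 arrays, and all 4 lay close to the table median, where RMA compresses differences.

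**Figure D1:**
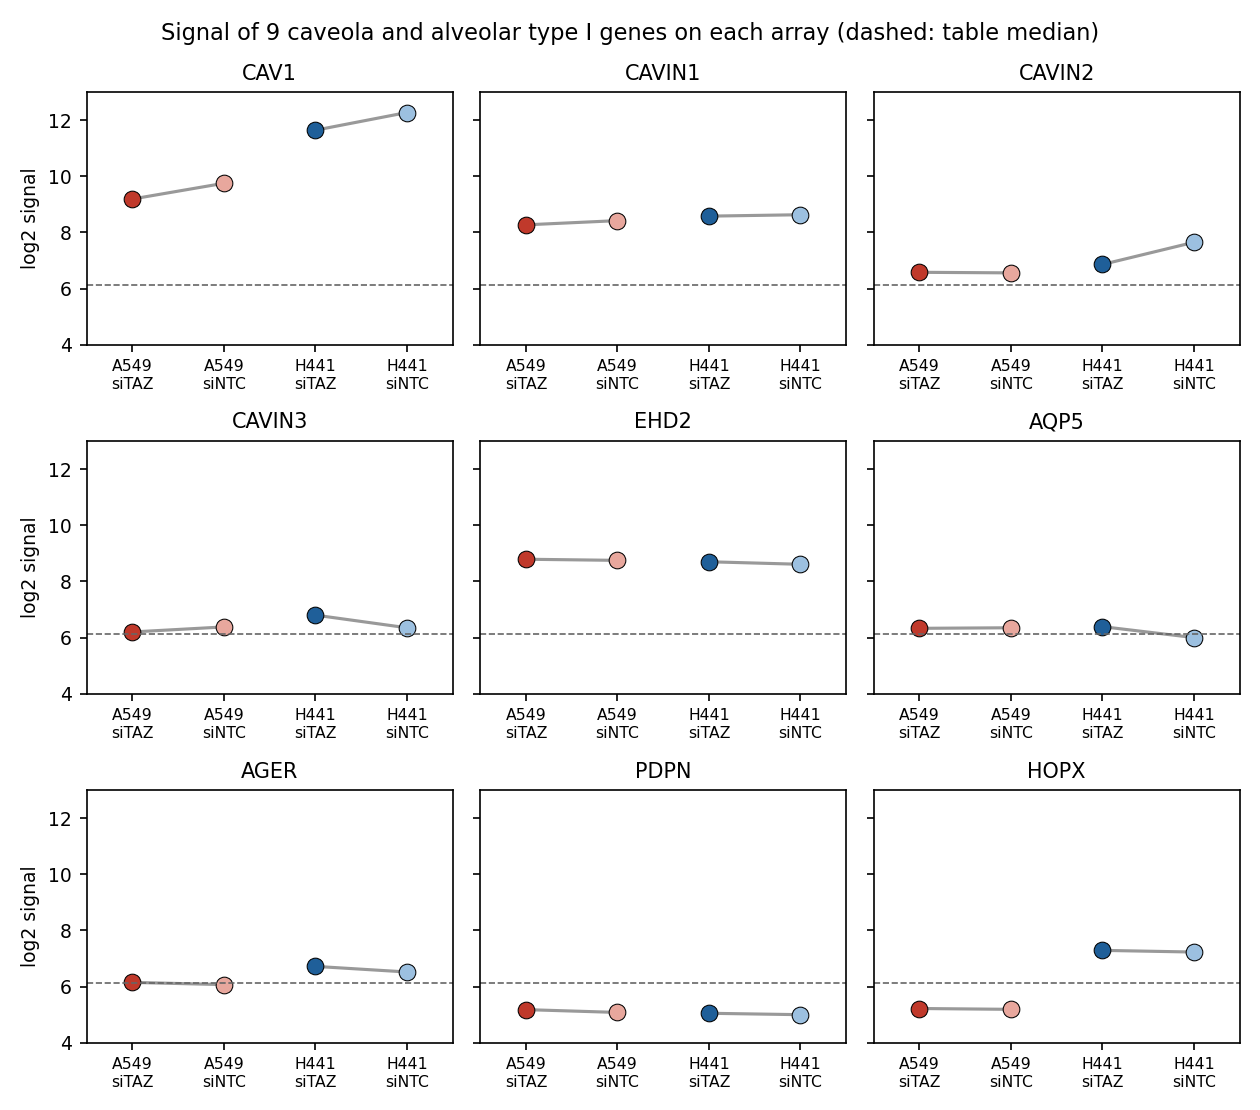
Log2 signal (y axis) of the 9 members read on the 4 arrays (x axis), 1 point per array, with lines joining the siTAZ and siNTC arrays of a line and the table median of 6.13 dashed; levels of different genes come from different probes and are not to be compared. CAV1 is lower with siTAZ in both lines (9.19 against 9.75 in A549, 11.64 against 12.27 in H441), CAVIN2 in H441 (6.86 against 7.65), and CAV1 and HOPX are far higher in H441 than in A549.

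None of the alveolar type I members differed by 1.5-fold after siTAZ in either line. AQP5 had a log2 signal of 6.33 with siTAZ and 6.35 with siNTC in A549, and 6.39 with siTAZ and 6.0 with siNTC in H441. Its H441 difference of 0.39, or 1.31-fold higher, was the largest of the 4 genes, and its A549 difference was -0.02. The H441 array with siNTC was the one below the table median.

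AGER, the receptor for advanced glycation end products, had 6.15 with siTAZ and 6.07 with siNTC in A549, and 6.72 with siTAZ and 6.52 with siNTC in H441. The differences were 0.09 and 0.19. Its 3 probe sets gave differences of 0.08 to 0.19 in A549 and 0.19 to 0.29 in H441, so the direction was alike in all of them. They are annotated to the same transcripts and are not independent measurements.

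HOPX, an unusual homeodomain protein that does not bind DNA by itself, showed the line and not the siRNA in its values. It had 5.22 with siTAZ and 5.19 with siNTC in A549, and 7.29 with siTAZ and 7.23 with siNTC in H441, differences of 0.03 and 0.06. PDPN, a membrane glycoprotein of type I and lymphatic endothelial cells, had 5.18 with siTAZ and 5.08 with siNTC in A549, and 5.05 with siTAZ and 5.0 with siNTC in H441. Both A549 values of HOPX and all 4 of PDPN were below the table median.

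Across the 9 genes, 4 were lower and 5 higher after siTAZ in A549, and 3 were lower and 6 higher in H441. Among all 12740 genes tested, 48.5% were lower in A549 and 47.5% in H441. Both lines were lower for CAV1 and CAVIN1, 2 of the 9, where the share of all genes was 27.2%. Both were higher for EHD2, AGER, PDPN and HOPX, 4 of the 9, against 30.3% of all genes. Of these 4, AGER was higher in both under each of the 3 other scalings. The H441 difference of PDPN turned to -0.03 after median centring and to -0.01 after quantile normalization and cyclic loess, that of HOPX to -0.03 after median centring and cyclic loess, and that of EHD2 was 0.00 after median centring. At 1.5-fold, 0 members were lower in A549, where 0.981% of all genes were, and 2 were lower in H441, where 0.911% were. In neither line was a member higher by 1.5-fold, against 1.59% of all genes in A549 and 0.447% in H441. The 1.5-fold limit fell between the CAV1 values of the 2 lines. The median difference of the 5 coat genes read was -0.15 in A549 and -0.05 in H441, against 0 and 0.01 over all genes tested, and that of the 3 type I genes that were not dim on every array was 0.03 and 0.19. Since the choice of the group used this contrast, nothing is read from these shares.

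**Figure D2:**
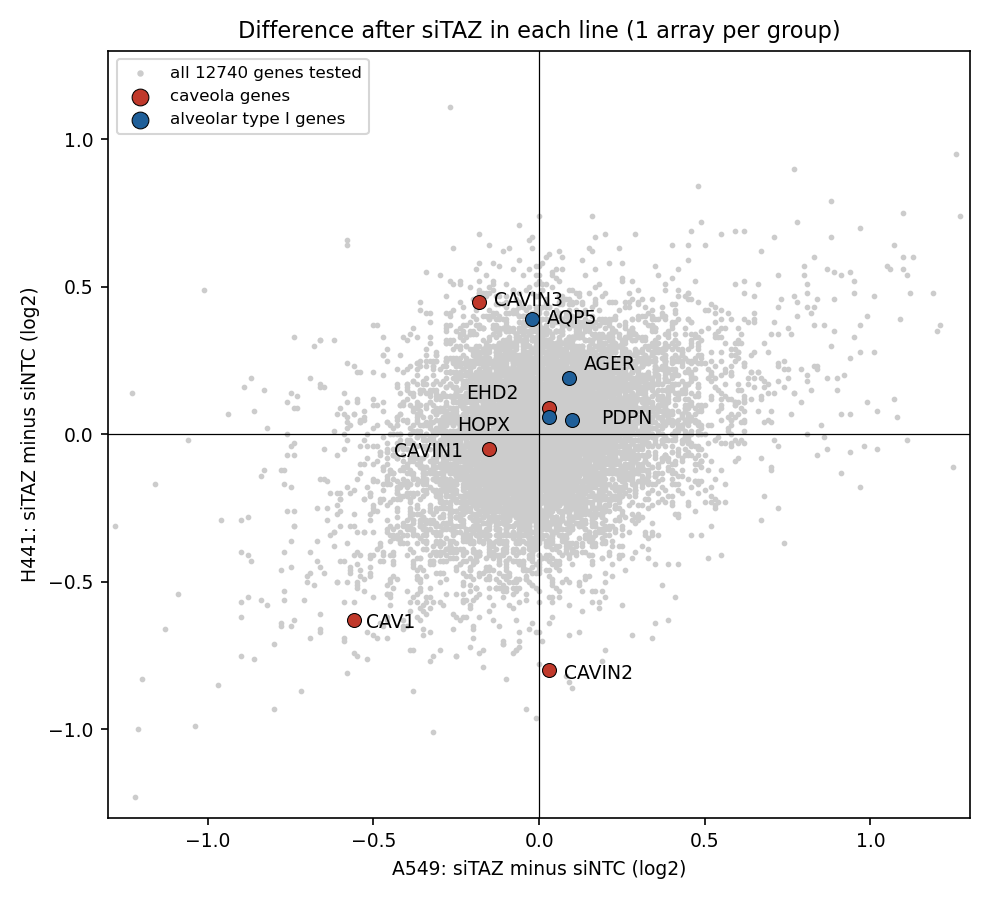
Difference siTAZ minus siNTC on the log2 scale in A549 (x axis) and in H441 (y axis), 1 array per group, for all 12740 genes tested (grey) and the 9 members (caveola genes red, alveolar type I genes blue); 16 genes beyond 1.3 on an axis are not drawn. CAV1 lies at -0.56 and -0.63, CAVIN2 at 0.03 and -0.80, CAVIN3 at -0.18 and 0.45, and AQP5, at -0.02 and 0.39, is the next farthest from 0.

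The rule that chose the group used no difference between A549 and H441, although the members were chosen with earlier results of these data known. The differences between the lines were tested with limma, with the siRNA as a block. The test sets 2 arrays of A549 against 2 of H441, with 1 residual degree of freedom that measures how far the siTAZ responses of the lines differ, and the p-values do not cover the spread between separate cultures. Of all genes, 71.9% passed at an adjusted p under 0.05, 52.8% as lower in A549 and 19% as higher, so a call by itself sets no gene apart. Of the calls, 73.5% were lower in A549. Of the 8 members tested 5 passed, all as lower in A549, a share near that of all genes, and 1 of the 5, HOPX, was tested only because its H441 arrays were above the table median. The median difference of all genes was -0.31, which was -0.15 after centring each array on its median and 0 after quantile normalization, and the share of calls lower in A549 was then 62.8% and 50.4%. Each tested member's difference is therefore also given relative to that median.

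CAV1 was far lower in A549 than in H441, with a mean log2 signal of 9.47 in A549 and 11.96 in H441. The difference was -2.49 ± 0.12 (limma SE, 2 arrays per line, adjusted p = 2.7e-15), 5.61-fold lower in A549, and -2.18 relative to the median of all genes. It was -2.45 between the siTAZ arrays and -2.52 between the siNTC arrays. The gap between the lines was thus of like size with either siRNA.

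HOPX was also lower in A549, with a mean of 5.20 in A549 and 7.26 in H441. The measured difference was -2.06 ± 0.12 (limma SE, adjusted p = 1.1e-13), and -1.75 relative to the median of all genes. Both A549 signals were dim and bound the level there only from above. Set against the table median in their place, HOPX was at least 2.19-fold lower in A549.

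AGER was lower in A549 by a smaller amount, -0.51 ± 0.12 (limma SE, adjusted p = 0.00049), or -0.20 relative to the median, from means of 6.11 in A549 and 6.62 in H441. CAVIN2 was lower in A549 by -0.69 ± 0.14 (limma SE, adjusted p = 0.00018), with means of 6.57 in A549 and 7.26 in H441, and by -0.38 relative to the median. That difference was -0.28 between the siTAZ arrays and -1.10 between the siNTC arrays, and it missed the threshold after cyclic loess (-0.42, limma adjusted p = 0.0748). CAVIN1 passed narrowly, at -0.26 ± 0.12 (limma SE, adjusted p = 0.049), but was 0.04 above the median of all genes, and its sign turned after quantile normalization (0.13) and cyclic loess (0.11).

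The remaining 3 members tested did not pass. CAVIN3 had means of 6.29 in A549 and 6.57 in H441, a difference of -0.28 with a 95% limma interval of -0.56 to 0.00 (adjusted p = 0.064), or 0.02 relative to the median of all genes. It was -0.60 between the siTAZ arrays against 0.04 between the siNTC arrays. EHD2 had 8.77 in A549 and 8.66 in H441, a difference of 0.11 with an interval of -0.13 to 0.35 (limma adjusted p = 0.39), and was 0.42 above the median of all genes. AQP5 had 6.34 in A549 and 6.19 in H441, a difference of 0.15 with an interval of -0.11 to 0.40 (limma adjusted p = 0.30), and was 0.45 above that median. The AQP5 difference was -0.06 between the siTAZ arrays and 0.35 between the siNTC arrays. EHD2 passed as higher in A549 after quantile normalization and after cyclic loess, at 0.50 under both (limma adjusted p = 0.00155 and 0.00307), but not after median centring (0.27, adjusted p = 0.0631). AQP5 passed as higher in A549 after all 3 of these scalings, at 0.30 to 0.35 (limma adjusted p of 0.0291 to 0.0394). PDPN was dim on all 4 arrays and was not tested.

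**Figure D3:**
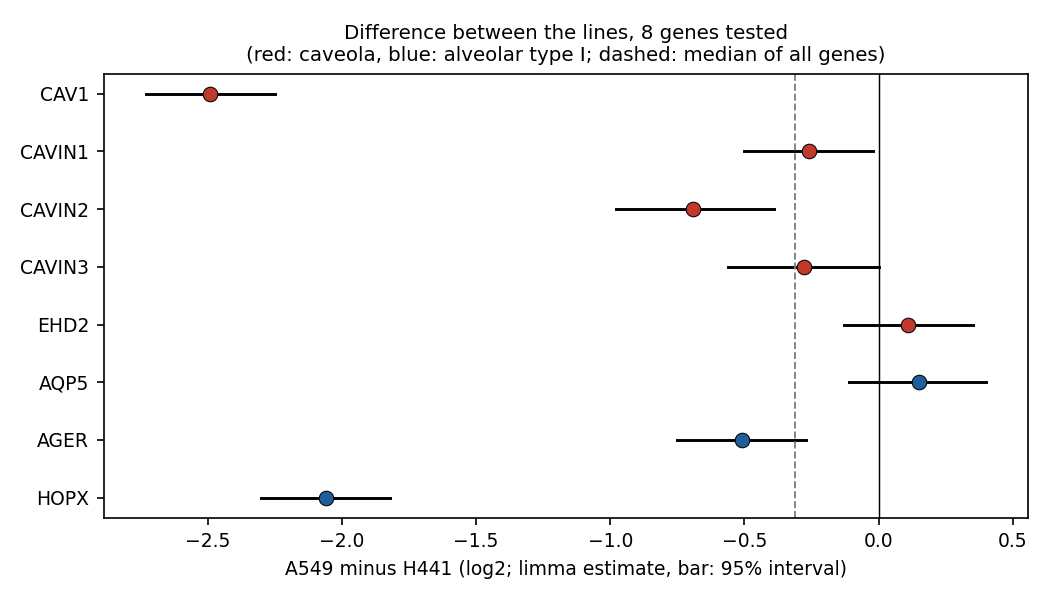
Difference A549 minus H441 on the log2 scale (x axis) for the 8 members tested, with limma 95% intervals as bars; caveola genes are red, alveolar type I genes blue, and the dashed line marks the median of all genes, -0.31. CAV1 at -2.49 and HOPX, dim in A549, at -2.06 lie far below that line, and CAVIN1 at -0.26 and CAVIN3 at -0.28 lie on it.

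Markers of other cells rich in CAV1 were examined beside this difference. By limma, 2 of the 3 endothelial markers tested were lower and 1 higher in A549, where 52.8% of all genes were lower and 19% higher. The mean log2 signal of the 8 endothelial markers was 5.60 and 5.68 in A549 with siTAZ and siNTC, and 6.14 and 6.03 in H441. KDR, a VEGF receptor gene, was at 4.95 and 4.93 in A549, both dim, and at 7.84 and 7.64 in H441. KDR was tested only through H441, and nothing is read from the count of endothelial calls. EGFL7, which encodes a secreted endothelial protein, went the other way, with 7.62 and 7.64 in A549 and 7.29 and 7.01 in H441 (difference 0.48, limma adjusted p = 0.0012). CLDN5, a tight junction claudin, had 6.16 and 6.54 in A549 and 6.76 and 6.67 in H441 (difference -0.37, limma adjusted p = 0.013). PECAM1, CDH5, VWF, TEK and TIE1 were dim on all 4 arrays. The 6 fibroblast markers averaged 5.64 and 5.56 in A549 and 6.25 in both H441 arrays, with LUM at 4.96 and 4.81 in A549, both dim, and at 6.98 and 7.46 in H441. The part of these genes in the CAV1 difference was not tested.

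Other genes that build or regulate caveolae were read from a list of 16, of which 15 had a single-symbol probe set and 13 were tested. This list and those that follow were also chosen with earlier results of these data known. The siTAZ p-values come from the same fit as those between the lines and likewise do not cover the spread between separate cultures. Over both lines, 2 of the 13 rose after siTAZ and 0 fell, while 2.47% of all genes passed the limma test, 1.19% as higher and 1.29% as lower. At an unadjusted limma p under 0.05 were 2 of the 13, or 15.4%, near the 13.2% of all genes. ROR1, a receptor-like kinase known to hold caveolin 1 and cavin 1 together, had 8.16 with siTAZ and 7.41 with siNTC in A549, and 8.86 with siTAZ and 8.50 with siNTC in H441. It rose by 0.56 ± 0.12 (limma SE, adjusted p = 0.013). EHD3, a relative of EHD2 that works in endosome recycling, rose by 0.46 ± 0.12 (limma SE, adjusted p = 0.033), with a difference of 0.46 in each line. Both lost their calls after cyclic loess (limma adjusted p = 0.118 for ROR1 and 0.136 for EHD3) and without the filter on dim genes (0.088 and 0.0982), and EHD3 also after median centring and quantile normalization.

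The other 11 did not pass. NOSTRIN, which traffics endothelial nitric oxide synthase, differed by 0.42 in A549 and by 0.02 in H441, and was dim in H441. SRC, a kinase that phosphorylates caveolin 1, had 0.33 and -0.12. The flotillins FLOT1 and FLOT2, which form caveolin-free membrane domains, had differences between -0.08 and 0.09. The median difference of the 13 was 0.11 in A549 and 0.02 in H441, against 0 and 0.01 over all genes. Muscle caveolin and cavin, CAV3 and CAVIN4, were dim on all 4 arrays.

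Between the lines, 9 of the 13 were lower and 4 higher in A549 by limma, with 71.9% of all genes called. PACSIN2, which shapes the caveola membrane, differed by -1.24 and EHD4 by -1.39, in the direction of CAV1. SRC differed the other way, by 1.09, and NOSTRIN, dim in H441, was at least 1.34-fold higher in A549, with measured means of 6.55 in A549 and 4.58 in H441. NOSTRIN was tested only through A549, so nothing is read from its call. PACSIN2, EHD4 and SRC each had a limma adjusted p of 4.3e-08 or less.

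Of 20 further alveolar type I markers, 19 had a single-symbol probe set and 11 were tested, and 8 were dim on all 4 arrays, among them CLIC5, CLDN18 and SPOCK2. After siTAZ, 2 of the 11 fell, 1 rose and 8 did not pass the limma test, where 1.29% of all genes fell and 1.19% rose. At an unadjusted limma p under 0.05 were 4 of the 11, or 36.4%, against 13.2% of all genes. Since the list was chosen with earlier results of these data known, nothing is read from these shares. GPRC5A, an orphan receptor of lung epithelium, had 9.65 with siTAZ and 10.42 with siNTC in A549, and 10.72 with siTAZ and 11.19 with siNTC in H441. It fell by 0.62 on the log2 scale (limma SE 0.12, adjusted p = 0.0046). LMO7, a LIM domain protein of cell junctions, fell by 0.48 (limma SE 0.12, adjusted p = 0.03), with differences of -0.58 in A549 and -0.37 in H441.

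EMP2, a tetraspan membrane protein abundant in type I cells, changed the other way, with 9.61 with siTAZ and 8.78 with siNTC in A549, and 11.46 with siTAZ and 11.09 with siNTC in H441. It rose by 0.60 ± 0.13 (limma SE, adjusted p = 0.0087). SCEL, the sciellin gene, had 9.05 with siTAZ and 9.88 with siNTC in H441, and was dim in A549 (adjusted p = 0.084 in limma). GPRC5A, LMO7 and EMP2 lost their calls after cyclic loess (limma adjusted p of 0.0993 to 0.154) and without the filter (0.0502 to 0.0998), and LMO7 also after quantile normalization. The 11 genes had a median difference of 0.07 in A549 and -0.26 in H441.

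**Figure D4:**
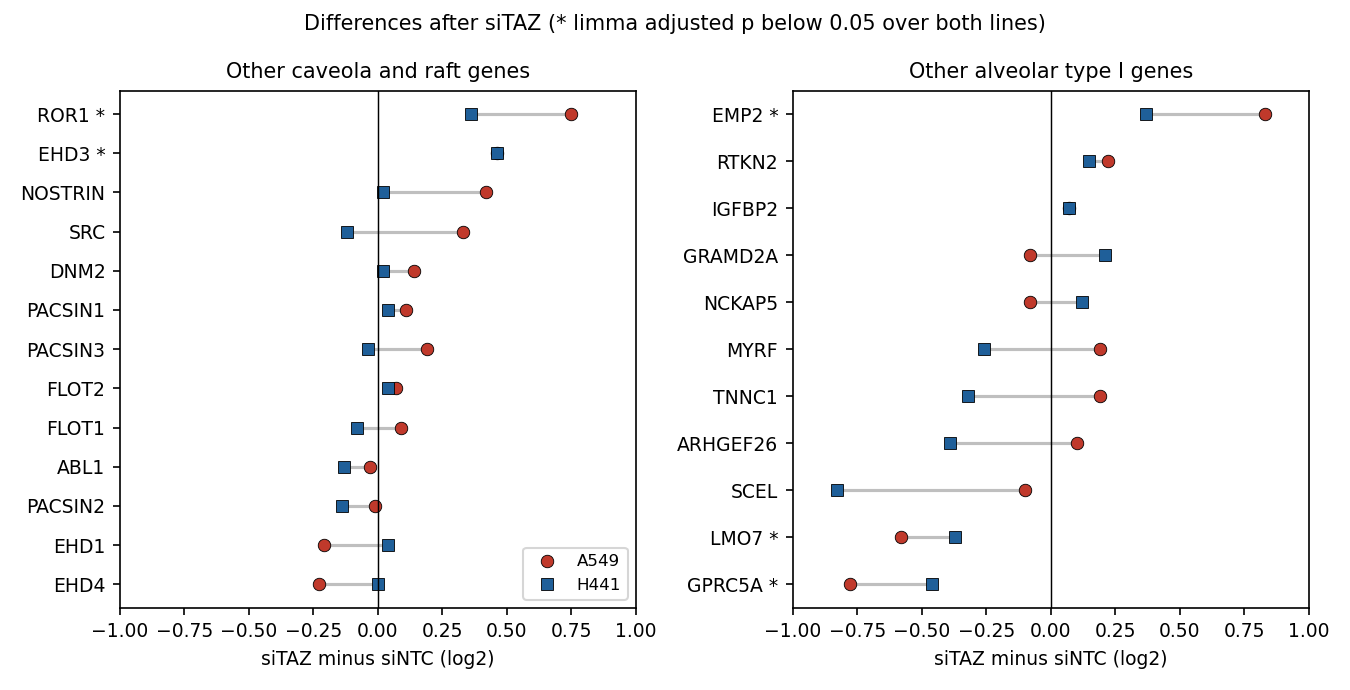
Difference siTAZ minus siNTC on the log2 scale (x axis) in A549 (red circles) and H441 (blue squares), 1 array per group, for the 13 other caveola genes and 11 other alveolar type I genes tested; an asterisk marks a limma adjusted p under 0.05 over both lines. ROR1, EHD3 and EMP2 lie above 0 in both lines, and LMO7 and GPRC5A below 0 in both.

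Between the lines, 8 of the 11 were lower in A549 and 3 higher by limma, where 52.8% of all genes were lower and 19% higher. Of those called lower, SCEL, TNNC1, GRAMD2A and ARHGEF26 were dim on both A549 arrays and were tested only through H441. The H441 means of TNNC1 (6.02) and GRAMD2A (6.10) were also below the table median, so no fold is given. NCKAP5, called higher, was dim in H441 and tested only through A549. Nothing is read from these counts. SCEL, dim in A549, was at least 10.1-fold lower there, with measured means of 4.59 in A549 and 9.46 in H441. LMO7 differed by -2.27 and EMP2 by -2.08, in the direction of CAV1 and HOPX, whereas IGFBP2, an insulin-like growth factor binding protein, was higher in A549 by 1.93. Among 12 alveolar type II genes tested, 10 were higher after siTAZ in both lines, against 30.3% of all genes, but 0 passed the limma test over all genes. Of these 10, SFTPB, LAMP3, NAPSA and SLC34A2 were dim in A549, where their sign carries little. The count was not repeated under other scalings. At an unadjusted limma p under 0.05, 6 of the 12 were higher and 1 lower, where 13.2% of all genes were at such a p in either direction. The lower one was SFTPC, surfactant protein C, with differences of -0.38 in A549 and -0.13 in H441 (limma unadjusted p = 0.045), and it was dim on 3 of the 4 arrays, both of H441 among them. SFTPB, surfactant protein B, differed by 0.17 in A549, where it was dim, and by 0.67 in H441. SLC34A2, a phosphate transporter, also dim in A549, differed by 0.13 and 0.59. The transcription factor ETV5 differed by 0.38 and 0.30, and the mucin MUC1 by 0.41 and 0.27. Since the type II list was chosen with earlier results of these data known, nothing is read from its shares after siTAZ. Between the lines, 9 of the 12 were lower in A549, 2 higher and 1 not called by limma. Of all genes, 52.8% were lower and 19% higher. Several of the 12 were tested only through a single line, as given below, so nothing is read from these counts. MUC1 differed by -5.32, with means of 6.44 in A549 and 11.75 in H441. SLC34A2, the aspartic protease gene NAPSA and the transcription factor NKX2-1 were dim in A549 and were tested only through H441, so their folds are bounds of at least 19.5, 17.4 and 9.36 lower in A549. For SFTPB and LAMP3, dim in A549 and tested only through H441 as well, the bounds were 3.08 and 1.58. ABCA3, a lipid transporter of lamellar bodies, was higher in A549 by 0.57 (limma adjusted p = 0.00015). SFTPC was called higher in A549 as well, but it was tested only through the A549 array with siNTC, at 6.36. Set against the table median, its A549 mean of 6.17 was at least 1.03-fold higher, and nothing is read from the call.

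The genes whose profile over the 4 arrays was most like that of CAV1, by the root mean square difference after each gene was centred on its own mean, were CCN1 (0.031), ZNF860 (0.104), CASP4 (0.107), FOSL1 (0.113) and IGF2BP2 (0.134). The median over all tested genes was 1.14 on the same log2 scale. CCN1, which encodes a secreted matricellular protein, had 7.21 with siTAZ and 7.69 with siNTC in A549, and 9.60 with siTAZ and 10.24 with siNTC in H441. All 5 were lower after siTAZ in both lines and lower in A549 than in H441 with differences of -2.47 to -2.31. Their choice by likeness to CAV1 on these same arrays favours such shared directions. ZNF860 was dim on both A549 arrays, at 4.48 with siTAZ and 4.78 with siNTC. The likeness rests on 4 arrays and mostly on the difference between the lines.

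**Figure D5:**
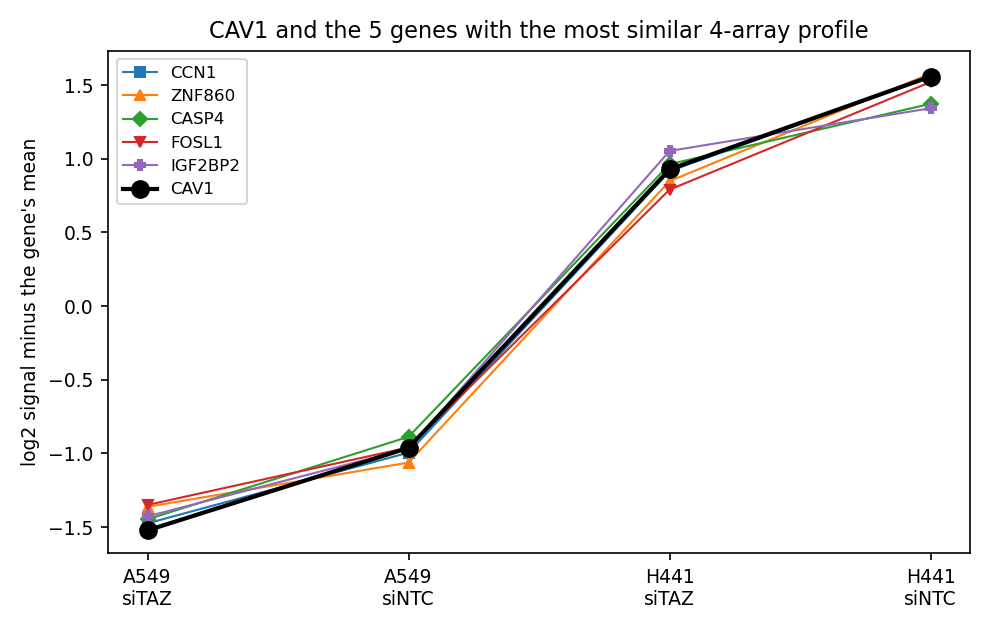
Log2 signal minus each gene's own mean (y axis) on the 4 arrays (x axis, 1 array per group) for CAV1 (black) and the 5 genes with the smallest root mean square difference from it, 0.031 for CCN1 to 0.134 for IGF2BP2. Every curve climbs in the order A549 with siTAZ, A549 with siNTC, H441 with siTAZ and H441 with siNTC, which the choice by likeness favours.

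For AGER, taken from the type I members because its probe set had the highest mean signal, which does not rank the genes' levels, the nearest profiles were those of SCARF1 (0.004), CEP131 (0.009), TP53I3 (0.013), TOP1MT (0.014) and SRSF9 (0.018), and the median over all tested genes was 0.27. These genes differed by 0.06 to 0.11 after siTAZ in A549 and by 0.17 to 0.20 in H441. Their choice by likeness to AGER on these same arrays fixes such values near those of AGER, so nothing is read from them.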

How the data were processed

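RNA from 4 samples was hybridised to Affymetrix whole-transcript arrays, 1 per sample. The authors deposited log2 signals per probe set, for which the submitters' processing notes name RMA. The version of RMA is not given in the sources here, nor is it known if all 4 arrays were normalized at once, and the arrays' medians ran from 6.05 to 6.25. That the scale is log2 was judged from the range, 4.20 to 14.83. RMA compresses differences of dim probe sets.

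Of 28869 probe sets, 19310 had 1 symbol in the platform annotation, 1752 several and 7807 none. Symbols were updated through the Entrez identifier with the GRCh38.p14 gene table. Of several probe sets per gene, the one with the highest mean was used. Of the listed genes with several, TIMP3 and PECAM1 had probe sets of opposite sign.

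Genes whose highest value reached the table median were fitted with limma 3.58.1 (R 4.3.3; lmFit, eBayes, two-sided, Benjamini-Hochberg over 12740 genes) on line plus siRNA, which pairs the siTAZ and siNTC arrays of a line. The fit, with 1 residual degree of freedom and a prior worth 22.3, was tested on simulated data. With 1 array per group, the number of arrays limits the precision. The p-values of either contrast, that of WWTR1 included, do not cover the spread between separate cultures. Members and lists were chosen with earlier results of these data known.

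Genes were named by rule: all members and WWTR1, per list the genes called after siTAZ and up to 4 with the largest siTAZ and line differences, the 5 most alike CAV1 and AGER, and the marker genes. KDR, LUM, CLIC5, CLDN18, SPOCK2, FLOT1, FLOT2, CAV3, CAVIN4, ABCA3 and SFTPC are list genes described beside it, chosen after their values were seen. So are TNNC1, GRAMD2A, ARHGEF26, NCKAP5, LAMP3, COL1A1 and CD68. FLNA, LAMA3, SFTPA1 and SFTPA2 had no single-symbol probe set and are not analysed here. Alternatives were other scalings, filters, priors, probe set rules, blocks and fold limits.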

Additional observations from a re-analysis of the deposited data

Results flagged for a closer look

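The siTAZ differences of 3 members had opposite signs in the 2 lines, and the difference between the lines was not tested, since a fit with that term uses up all 4 arrays. CAVIN2 had 0.03 in A549 and -0.80 in H441, a gap of 0.82 on the log2 scale. CAVIN3 had -0.18 and 0.45, a gap of -0.63. AQP5 had -0.02 and 0.39, a gap of -0.41. The A549 differences of CAVIN2 and AQP5 were close to 0, so their sign carries little.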

How the results depend on the processing

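The siTAZ differences of every member in both lines moved by less than 1 limma SD under the 3 other scalings and the mean of probe sets. That SD is the gene's own after shrinkage, and rests mostly on the prior shared by all genes. For PDPN, which was not fitted, the median SD of the tested genes was used. CAV1 ran from -0.57 to -0.56 in A549 and from -0.71 to -0.55 in H441. Members lower in H441 numbered 5 of 9 after median centring and after cyclic loess, against 3 as deposited. After cyclic loess 1 member was lower by 1.5-fold in H441, at the lower fold limit 1 member, CAV1, was in A549, and at 2-fold 0 were in H441.

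Between the lines, CAV1, HOPX and AGER passed limma under every alternative that tested them, with adjusted p up to 7.05e-05, 3.14e-06 and 0.0338. The filter at the 75th percentile left 2 members and 5659 of all genes called, since fewer genes were tested. CAVIN1 lost its call after median centring (-0.11) and without the block, and turned sign after quantile normalization (0.13) and cyclic loess (0.11). The causes were not tested.

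After siTAZ, limma called 315 genes, against 146 after quantile normalization, 20 after cyclic loess, 92 without the filter, 594 with a trend in the prior and 0 without the line as a block, where 11 had an unadjusted p under 0.05. Of the other caveola genes, 1 was called after median centring, quantile normalization or the stricter filter, and 0 after cyclic loess, without the filter or without the block. Of the other type I genes, 0 were called under those last 3 settings. Of the type II genes, 2 (SFTPB and MUC1) passed with the trend. The split of siTAZ calls after median centring was 123 higher and 277 lower. The number of arrays, and signals near the table median for CAVIN3, AQP5 and AGER, limit what could be seen.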
